A study of Rattus norvegicus with 18 samples.

Results

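Macrophages that reside around blood vessels in the sublining of the joint carry a set of scavenger receptors, of which 6 were followed in rat synovium: Timd4, Lyve1, Folr2, Cd163, Mrc1 and Stab1. The rule lists them by name and uses no measured value, although the set was put together with earlier results of these data known, and 5 of the 6 had a row under their symbol among the 30643 genes of both expression tables (Lyve1 ENSRNOG00000026902, Folr2 ENSRNOG00000019890, Cd163 ENSRNOG00000010253, Mrc1 ENSRNOG00000018251 and Stab1 ENSRNOG00000018434). Timd4 was not analysed here. Lyve1, a receptor for hyaluronan, was the receptor of the 5 whose level stood highest in OA relative to sham at both time points, at 1.35-fold and 1.43-fold, without passing the test across all genes. Cd163, the receptor that takes up haemoglobin bound to haptoglobin, rose between 4 and 12 weeks by 1.77-fold in sham and 1.67-fold in OA, and was the only one of the 5 to pass that test in any comparison.

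Synovial macrophages fall broadly into cells that form a layer at the joint surface, the lining, and cells in the looser tissue beneath it, the sublining. Resident sublining macrophages sit along vessels, are renewed largely in place, and carry receptors that clear matrix fragments, plasma proteins, glycoproteins and dying cells. The receptors described here are used as markers of such cells in many tissues, although Lyve1 and Stab1 are also made by lymphatic or other endothelial cells.

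RNA was sequenced from synovial cells sorted for CD11b/c, an integrin of myeloid cells, taken from knees of male wild type Sprague Dawley rats 4 or 12 weeks after surgery at an age of 12 weeks. OA was induced by cutting the anterior cruciate ligament and destabilising the medial meniscus, and control rats had a sham operation. By their labels, 10 libraries were taken at 4 weeks (5 per surgery, each from the pooled synovium of 4 rats) and 8 at 12 weeks (4 per surgery, each from 3 rats). A library is therefore an average over rats, the sort does not part macrophages from other CD11b/c-positive cells, and in such bulk RNA fewer cells of a type and less RNA per cell cannot be told apart.

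Libraries held between 4662344 and 18080503 reads in genes, and sham replicate 3 at 4 weeks was the shallowest. All 12 general macrophage markers, among them Csf1r, Adgre1 and C1qa, had reads in every library. Their summed level ranged from 6829 to 8705 CPM, a count scaled to the same total in every library, in OA and 6890 to 7839 CPM in sham at 4 weeks, and from 8478 to 10310 CPM in OA and 6928 to 9922 CPM in sham at 12 weeks. Markers of other cells were also present, with summed levels over all libraries of 3847 to 9344 CPM for 7 fibroblast genes, 2759 to 4806 CPM for 7 blood endothelial genes and 155.9 to 409.9 CPM for 6 lymphatic endothelial genes. The 9 neutrophil genes summed to 1042 and 1182 CPM in OA replicates 1 and 3 at 4 weeks and to at most 391 CPM elsewhere. No measured gene of any marker list was at 0 in all libraries, and Elane, Cd3e, Cd3g, Pax5 and Lep were at 0 in some.

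Promoters of 4 of the receptors are shown first, as stretches where factors of myeloid cells may bind. The windows run from 250 bases before to 50 bases after the gene start in the RefSeq annotation of GRCr8, 5′ to 3′ on the strand of the gene, and the assembly differs from the one on which the authors counted reads. Capitals mark GAGGAA or its reverse TTCCTC, a core of sites bound by PU.1, the factor that myeloid cells depend on. Lyve1 (chr1:174410928-174411227, minus strand) and Cd163 (chr4:158770524-158770823, plus strand) are shown as the receptors that differed most between surgeries and between weeks, and Mrc1 (chr17:82157475-82157774, plus strand) and Stab1 (chr16:6367310-6367609, minus strand) as those with the most marked letters.
Lyve1: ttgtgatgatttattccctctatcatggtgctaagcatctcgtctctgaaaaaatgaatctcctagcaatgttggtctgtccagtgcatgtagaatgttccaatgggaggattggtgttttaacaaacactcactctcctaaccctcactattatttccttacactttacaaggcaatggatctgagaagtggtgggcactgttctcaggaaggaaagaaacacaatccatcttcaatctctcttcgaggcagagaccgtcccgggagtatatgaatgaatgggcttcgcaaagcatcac
Cd163: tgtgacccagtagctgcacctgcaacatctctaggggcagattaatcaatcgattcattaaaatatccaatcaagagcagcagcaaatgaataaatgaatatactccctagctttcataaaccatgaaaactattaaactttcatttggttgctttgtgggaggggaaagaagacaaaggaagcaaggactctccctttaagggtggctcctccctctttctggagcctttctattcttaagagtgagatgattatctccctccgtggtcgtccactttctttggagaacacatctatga
Mrc1: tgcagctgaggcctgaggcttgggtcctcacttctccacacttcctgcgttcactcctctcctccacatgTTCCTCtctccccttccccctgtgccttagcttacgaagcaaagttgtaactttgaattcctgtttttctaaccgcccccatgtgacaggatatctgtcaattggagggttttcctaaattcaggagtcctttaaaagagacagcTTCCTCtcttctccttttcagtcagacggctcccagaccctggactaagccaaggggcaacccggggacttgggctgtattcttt
Stab1: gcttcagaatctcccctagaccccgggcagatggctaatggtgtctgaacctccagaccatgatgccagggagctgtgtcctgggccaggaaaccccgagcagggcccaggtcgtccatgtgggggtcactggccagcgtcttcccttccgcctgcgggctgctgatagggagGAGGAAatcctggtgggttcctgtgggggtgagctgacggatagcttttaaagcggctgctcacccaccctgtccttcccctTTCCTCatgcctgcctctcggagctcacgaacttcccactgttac
The windows of Mrc1 and Stab1 held 2 PU.1 cores each, and those of Lyve1, Cd163 and Folr2 held 0. Among 33469 rat promoter windows of the same length, 27.6% held at least 1 PU.1 core on either strand, so such matches are common. A match here is a run of letters and was not measured as a bound site.

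The first question was whether the receptors differed between OA and sham within a time point. Values in this comparison are normalised read counts, that is reads divided by a size factor of the library within its time point. Over all genes, limma called 0 of 14861 at 4 weeks and 0 of 14666 at 12 weeks at an adjusted p under 0.05 and a log2 difference of at least 0.5 (0.0% at each). Without adjustment, p was under 0.05 in 609 genes that were higher in OA (4.1%) and 568 that were lower (3.82%) at 4 weeks, and in 843 (5.75%) and 971 (6.62%) at 12 weeks. With the same thresholds edgeR called 0 genes at each time point. DESeq2, run without a filter on the mean, called 27 of 29615 at 4 weeks (0.0912%) and 95 of 28433 at 12 weeks (0.334%). None of them was a receptor described here.

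Lyve1 at 4 weeks counted 7699, 7842, 9848, 8226 and 7979.8 normalised reads in OA replicates 1 to 5. In sham it counted 4469, 6546, 5498, 6812 and 7909.8. Sham replicate 5 reached into the OA range, the other 4 sham libraries lay below every OA library, and 3 of 5 OA libraries lay above every sham library. Lyve1 averaged 8319 ± 876.5 in OA against 6247 ± 1313 in sham (mean ± SD of 5 libraries each). The log2 difference in Lyve1 was 0.43 (SE 0.141, 95% confidence interval 0.13 to 0.74), with an unadjusted p of 0.0092 and an adjusted p of 0.544 in limma. A two-sided exact permutation test of the mean log2 level gave p = 0.0238, where 5 against 5 libraries can reach 0.00794.

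At 12 weeks Lyve1 counted 10791, 14609, 12196 and 15319 normalised reads in OA and 10142, 8111, 7724 and 10994 in sham. Of the 4 OA libraries, 3 lay above every sham library, and OA replicate 1 fell between sham replicates 1 and 4. Lyve1 averaged 13230 ± 2104 in OA against 9243 ± 1577 in sham (mean ± SD of 4 libraries each). The log2 difference was 0.52 (SE 0.145, 95% confidence interval 0.20 to 0.84), with an unadjusted p of 0.00486 and an adjusted p of 0.278 in limma. The two-sided exact permutation test gave p = 0.0571, where 4 against 4 libraries can reach 0.0286. Lyve1 was the only 1 of the 5 receptors with an unadjusted p under 0.05 and a higher level in OA at 4 weeks, where 4.1% of all genes met that mark, and again the only 1 at 12 weeks, where 5.75% did. Of 14420 genes tested at both time points, 229 (1.59%) met it at both. Leaving out 1 library at a time moved the log2 difference in Lyve1 between 0.32 and 0.53 at 4 weeks and between 0.44 and 0.61 at 12 weeks. Over the other settings tried its adjusted p ranged from 0.201 to 0.674 at 4 weeks and from 0.0501 to 0.55 at 12 weeks, with the lowest value of each from DESeq2.

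Lyve1 is also made by lymphatic endothelium, and fibroblast genes stood higher in OA at 12 weeks, so the markers of both are given beside it. At 4 weeks the 6 lymphatic genes summed to 240.9 to 303.3 CPM in OA and 155.9 to 285.0 CPM in sham, with Mmrn1 and Ccl21 higher in OA at an unadjusted p under 0.05. At 12 weeks they summed to 335.3 to 409.9 CPM in OA and 314.3 to 398.9 CPM in sham, and 0 of 6 had an unadjusted p under 0.05. Of the 12-week sums, Pdpn, also made by fibroblasts, gave 216.5 to 245.6 CPM in OA and 180.2 to 258.0 CPM in sham. The median log2 difference of the 6 lymphatic genes was 0.20 at 4 weeks and 0.30 at 12 weeks. Prox1, the transcription factor that defines lymphatic endothelium, ranged from 4.66 to 10.7 CPM over all libraries. Of the 7 fibroblast genes, 1 at 4 weeks and 6 at 12 weeks were higher in OA at an unadjusted p under 0.05, and 1, Thy1, was lower at 12 weeks. Their summed level at 12 weeks was 6146 to 7984 CPM in OA and 4036 to 6444 CPM in sham. At an unadjusted p under 0.05, 4.1% of all genes were higher in OA and 3.82% lower at 4 weeks. At 12 weeks these shares were 5.75% and 6.62%. The part of either cell type in the Lyve1 difference was not tested. Measured against the mean of the 12 general macrophage markers in the same library, the log2 difference in Lyve1 was 0.31 at 4 weeks (unadjusted p 0.0416, adjusted p 0.674 in limma) and 0.40 at 12 weeks (unadjusted p 0.00656, adjusted p 0.55).

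Mrc1, the mannose receptor, binds glycoproteins and collagen. At 4 weeks it counted 21327, 21864, 25645, 21878 and 20050.3 normalised reads in OA and 15129, 21346, 13389.7, 19422 and 21932 in sham. The groups overlapped, since only OA replicate 3 lay above every sham library, and sham replicates 1 and 3 were the lowest of the 10. The log2 difference was 0.30 (SE 0.145, 95% confidence interval -0.01 to 0.62), with an adjusted p of 0.639 in limma and an exact permutation p of 0.0952. At 12 weeks Mrc1 counted 28547, 31361, 27576 and 28609.9 in OA and 27645, 31469, 23199.7 and 32278 in sham, and no OA library lay above every sham library. The log2 difference at 12 weeks was 0.03 (SE 0.123, 95% confidence interval -0.24 to 0.30; adjusted p 0.929 in limma).

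Stab1, stabilin-1, takes up modified lipoproteins and the matrix protein SPARC and guides them to lysosomes. At 4 weeks it counted 9606, 8957, 8698, 9662 and 9291 normalised reads in OA and 7331, 9302, 4639.6, 10141 and 10296 in sham. The SD was 414.8 in OA and 2383 in sham (n = 5 each), and sham held both the lowest and the highest library. The log2 difference of 0.20 (SE 0.188, 95% confidence interval -0.20 to 0.61; adjusted p 0.771 in limma) fell to 0.0077 without sham replicate 3, so that 1 library set its size. At 12 weeks Stab1 counted 12773, 13408, 10124 and 10488 in OA and 12487, 12379, 10286 and 14681 in sham. The groups overlapped throughout, with a log2 difference of -0.09 (SE 0.129, 95% confidence interval -0.38 to 0.20; adjusted p 0.787 in limma).

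Folr2, folate receptor beta, is a lipid-anchored protein that binds folate. At 4 weeks it counted 3756, 3826, 4666, 4129.8 and 3319 normalised reads in OA and 3149, 3704, 3897, 3583 and 3606 in sham. OA libraries were both above and within the sham range, and the log2 difference was 0.13 (SE 0.0973, 95% confidence interval -0.08 to 0.34; adjusted p 0.733 in limma). At 12 weeks it counted 5193, 6334, 5397 and 6338 in OA and 5019, 5578, 3842 and 6572 in sham, again with overlap. The log2 difference there was 0.17 (SE 0.148, 95% confidence interval -0.16 to 0.50; adjusted p 0.649 in limma), and 0.03 without sham replicate 3, the lowest library.

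Cd163 at 4 weeks counted 9440.0, 8928.5, 11553, 9122 and 8411 normalised reads in OA and 6369, 10799, 6677.5, 10166 and 9581 in sham. Sham held the 2 lowest libraries, and only OA replicate 3 lay above every sham library. The log2 difference was 0.15 (SE 0.158, 95% confidence interval -0.20 to 0.49; adjusted p 0.805 in limma). At 12 weeks Cd163 counted 16851, 20731, 17436 and 16669 in OA and 17999, 16293, 14015 and 22454 in sham, with the sham range enclosing that of OA. The log2 difference was 0.03 (SE 0.143, 95% confidence interval -0.28 to 0.35; adjusted p 0.929 in limma). The intervals of all 4 receptors other than Lyve1 thus held 0 at both time points. They overlapped the interval of Lyve1 at each week, and the differences were not tested between receptors.

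**Figure D1:**
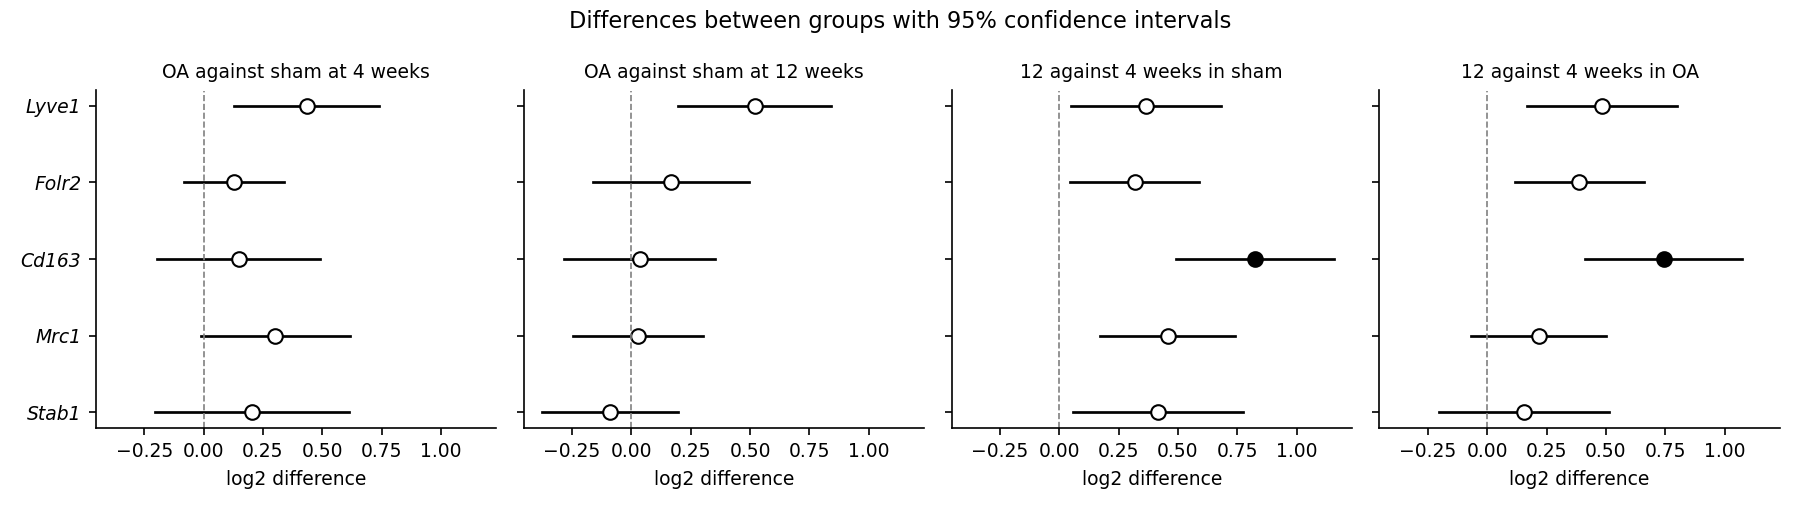
Log2 difference of each receptor in 4 comparisons (x axis), with bars for the 95% confidence interval and filled points for an adjusted p under 0.05 in limma. Lyve1 lies to the right of 0 in both OA against sham panels, at 0.43 and 0.52, and Cd163 has the filled points, at 0.82 in sham and 0.74 in OA between 12 and 4 weeks.

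Because 1 library can be high or low for all receptors at once, Lyve1 was also read against the other receptors of the same library. These ratios of reads were chosen after the values had been seen, carry no test, and compare 1 pair of genes across groups, not the level of one gene with another. For each read of Cd163 there were 0.64 to 0.919 reads of Lyve1 in OA at 12 weeks and 0.49 to 0.563 in sham. For each read of Mrc1 there were 0.378 to 0.535 in OA and 0.258 to 0.367 in sham. For each read of Stab1 there were 0.845 to 1.46 in OA and 0.655 to 0.812 in sham. In all of these pairs, as in the pair with Folr2 (2.08 to 2.42 in OA and 1.45 to 2.02 in sham), the OA and sham libraries at 12 weeks did not overlap. All 4 ratios share the reads of Lyve1, which already stood higher in OA, and the ratio of Lyve1 to any other gene tested was higher in OA without overlap for 33.9% of 14665 genes. At 4 weeks the ratio to Cd163 averaged 0.879 ± 0.0503 in OA against 0.725 ± 0.0968 in sham (SD of 5 libraries each). The ranges of 0.816 to 0.949 and 0.606 to 0.826 then overlapped, as did those of the other pairs.

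**Figure D2:**
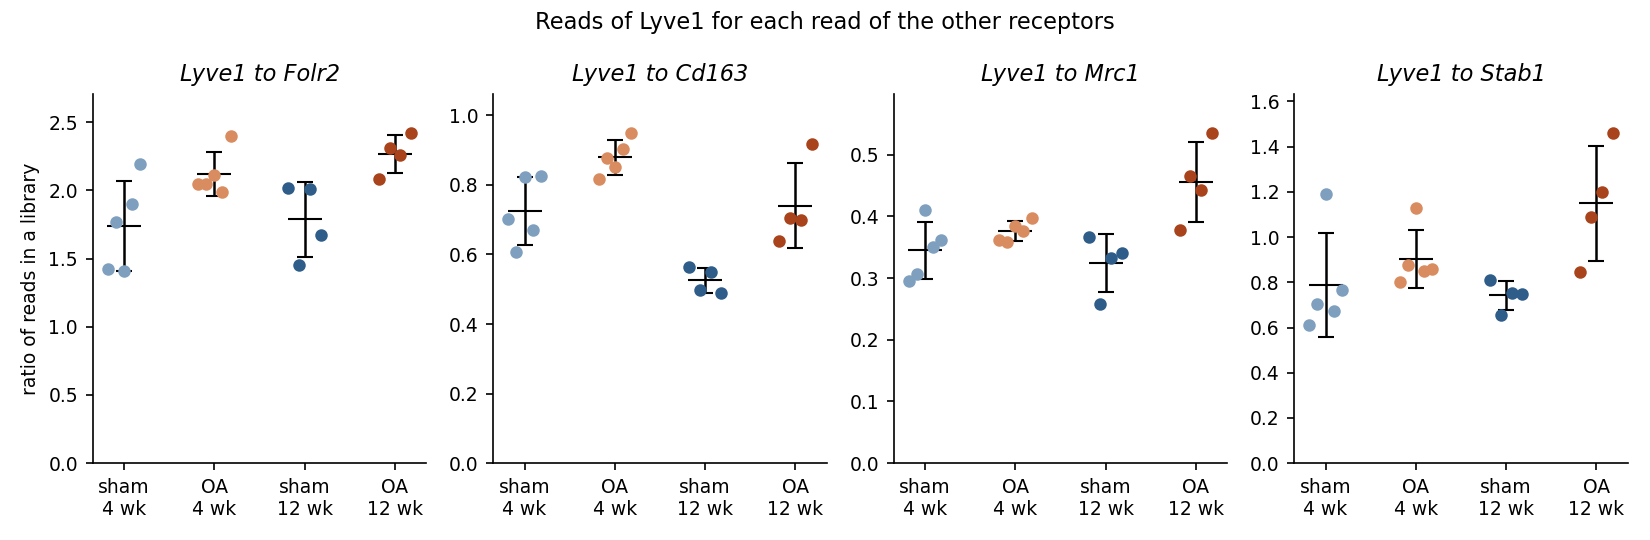
Reads of Lyve1 for each read of Folr2, Cd163, Mrc1 or Stab1 in the same library (y axes, linear from 0), by group, with 1 point per library and bars for the mean and SD. At 12 weeks the 4 OA points lie above the 4 sham points in every panel, for example 0.64 to 0.919 against 0.49 to 0.563 for Cd163, and at 4 weeks the groups overlap.

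The second question was how the receptors changed between 4 and 12 weeks. The tables of both weeks had been normalised separately, so the reads were recovered and all 18 libraries were put on 1 scale of CPM. Week cannot be told apart from the size of the pools, from the age of the rats or from any batch that went with a week. Of 14732 genes, limma called 207 between weeks in sham (1.41%) and 138 in OA (0.937%).

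Cd163 at 4 weeks ranged from 530.4 to 915.8 CPM in sham, with replicates at 530.4, 916, 599, 863 and 806, and from 704 to 965 CPM in OA, with replicates at 801, 746, 965, 771 and 704. At 12 weeks it stood at 1321, 1199, 1046 and 1656 CPM in sham and at 1254, 1532, 1290.1 and 1252 CPM in OA. Every 12-week library lay above every 4-week library, whichever the surgery, as did the groups of 2.99% of all genes in sham and 5.7% in OA. The mean rose from 743 ± 169 to 1305 ± 259 CPM in sham (SD, n = 5 and n = 4), a log2 difference of 0.82 (SE 0.158, 95% confidence interval 0.49 to 1.16; adjusted p 0.0119 in limma). In OA it rose from 797 ± 100.4 to 1332 ± 134.5 CPM, a log2 difference of 0.74 (SE 0.158, 95% confidence interval 0.41 to 1.07; adjusted p 0.0268). The two-sided exact permutation test gave p = 0.0159 for each surgery, the smallest that 5 against 4 libraries allow. Cd163 was the 1 receptor of 5 called in either surgery, against 0.815% of all genes called higher in sham, 0.76% in OA and 0.333%, or 49 genes, in both.

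The call in OA was close to the threshold. It was lost without any 1 of 8 of the 9 OA libraries (all but replicate 3 at 4 weeks), with adjusted p-values of 0.0529 to 0.0946 in limma and log2 differences of 0.67 to 0.77, and the call in sham was lost without sham replicate 4 at 12 weeks (adjusted p 0.0531, log2 difference 0.70). Skeletal muscle genes moved in the same direction: their summed level was 22.6 to 54.2 CPM in all 4-week libraries, 60.1 to 68.3 CPM in sham at 12 weeks and 74.5 to 135 CPM in OA at 12 weeks, with 2 of 6 genes called in sham and 5 of 6 in OA, and their part in the Cd163 difference was not tested. Mast cell genes summed to 104.5 to 166.9 CPM at 4 weeks and 133.0 to 264.3 CPM at 12 weeks in sham and to 76.98 to 135.1 and 108.8 to 204.1 CPM in OA, with 4 of 6 higher at 12 weeks at an unadjusted p under 0.05 in each surgery and 0 called. Of the 7 fibroblast genes, 3 were higher and 0 lower at that mark in each surgery. The median log2 difference of the 7 was -0.007 in sham and -0.018 in OA. At an unadjusted p under 0.05, 10.2% of all genes were higher at 12 weeks and 8.97% lower in sham. In OA these shares were 7.76% and 6.84%. Genes called higher made up 0.815% of all genes in sham and 0.76% in OA. Prg4, lubricin, was called in OA (1.3 on the log2 scale, adjusted p 0.0363 in limma). Pdpn, podoplanin, on the lymphatic list and also made by fibroblasts, rose in sham (0.76, adjusted p 0.0122 in limma) and in OA (0.82, adjusted p 0.0131). The part of these cells was not tested either. Relative to the general macrophage markers of the same library the log2 difference in Cd163 was 0.68 in sham and 0.57 in OA, where the adjusted p was 0.0905.

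The other receptors also stood higher at 12 than at 4 weeks on average, none past the test. The mean of Mrc1 was 1553 ± 304 CPM at 4 weeks and 2114 ± 297 CPM at 12 weeks in sham (log2 difference 0.46, 95% confidence interval 0.17 to 0.74, adjusted p 0.0835 in limma) and 1861 ± 171 and 2158 ± 116 CPM in OA (0.22, -0.07 to 0.50, adjusted p 0.496). Lyve1 was at 533 ± 109 and 682 ± 114 CPM in sham (log2 difference 0.37, 95% confidence interval 0.05 to 0.68, adjusted p 0.199 in limma) and at 699 ± 71.2 and 984 ± 159.5 CPM in OA (0.48, 0.17 to 0.80, adjusted p 0.141). Folr2 was at 307 ± 31.2 and 388 ± 82.6 CPM in sham (log2 difference 0.32) and at 331 ± 41.6 and 432 ± 46.2 CPM in OA (0.39). Stab1 was at 709 ± 193 and 919 ± 129 CPM in sham (log2 difference 0.42) and at 777 ± 39.9 and 869.5 ± 118.9 CPM in OA (0.15). All 5 receptors had an unadjusted p under 0.05 in sham, where 10.2% of all genes were higher at that mark, and 3 of 5 had it in OA, where 7.76% were. The median log2 difference over the 5 was 0.42 in sham and 0.39 in OA, beside medians of -0.0026 and -0.0064 over all genes tested, which the scaling holds near 0. Relative to the general macrophage markers, the log2 differences in sham were 0.31 for Mrc1, 0.27 for Stab1, 0.22 for Lyve1 and 0.17 for Folr2. In OA on that scale they were 0.31 for Lyve1, 0.21 for Folr2, 0.04 for Mrc1 and -0.02 for Stab1, so that Stab1 turned over.

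**Figure D3:**
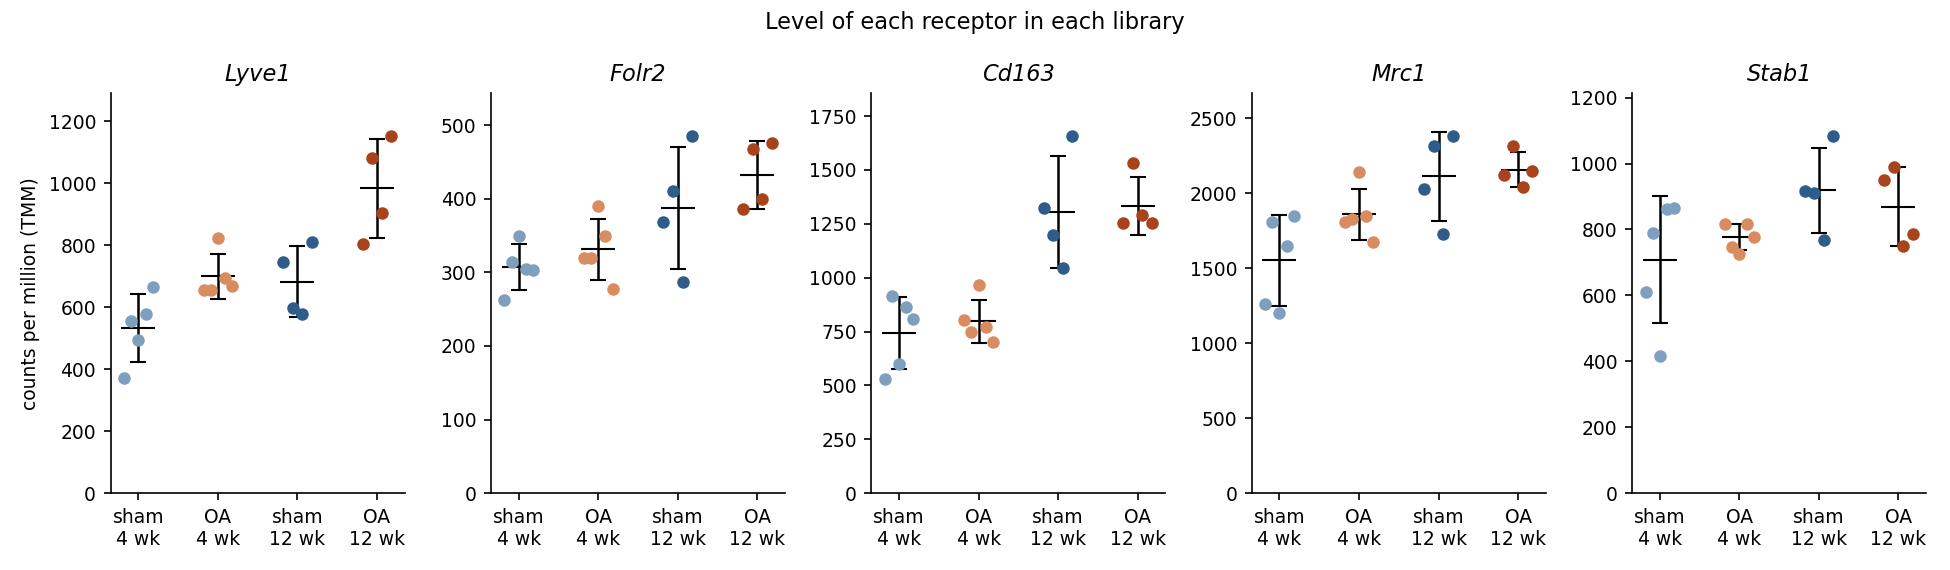
CPM of each receptor (y axes, linear from 0) in 18 libraries by group, with 1 point per library and bars for the mean and SD. All 12-week points of Cd163, from 1046 CPM, lie above all 4-week points, up to 965 CPM, and the 12-week OA points of Lyve1, from 803 to 1151 CPM, include the highest of that gene.

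The order of the groups by mean CPM differed among the receptors. Lyve1 was highest in OA at 12 weeks, followed by OA at 4 weeks, sham at 12 weeks and sham at 4 weeks, and its middle groups, at 699 ± 71.2 and 682 ± 114 CPM, did not differ beyond their spread. Cd163, Mrc1 and Folr2 followed the order OA at 12 weeks, sham at 12 weeks, OA at 4 weeks and sham at 4 weeks. Cd163 in sham at 12 weeks and in OA at 4 weeks was the only pair of neighbours in these orders, over all 5 receptors, whose libraries did not overlap. Stab1 was the only receptor whose highest mean was in sham, at 12 weeks. A change of the OA against sham difference between weeks was not detected for any receptor: the contrast of both differences, which shares all its libraries with the comparisons above, was 0.12 for Lyve1 (95% confidence interval -0.33 to 0.56), -0.08 for Cd163 (-0.55 to 0.39), -0.24 for Mrc1 (-0.64 to 0.16), -0.26 for Stab1 (-0.77 to 0.24) and 0.07 for Folr2 (-0.31 to 0.45) on the log2 scale. Adjusted p-values of this contrast were at least 0.956 in limma. It called 0 of 14732 genes in limma and edgeR and 0 of 30131 in DESeq2. At an unadjusted p under 0.05 in limma, 350 genes were higher (2.38%) and 119 lower (0.808%).

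Once the mean of each group was removed, the receptors varied together from library to library, to different degrees. Over 18 libraries and 10 pairs, the deviations of log2 CPM were most alike for Cd163 and Mrc1, with Pearson's r = 0.875 (permutation p 0.00084, Benjamini-Hochberg adjusted p 0.0042) and Spearman's rho = 0.775 (permutation p 0.00633, adjusted 0.0188). Without the 2 libraries farthest from the median r was 0.853, and within weeks it was 0.925 at 4 weeks and 0.763 at 12 weeks. Lyve1 and Cd163 had r = 0.79 (permutation p 0.00075, adjusted 0.0042) and rho = 0.732 (permutation p 0.00256, adjusted 0.0188), with r = 0.725 without the 2 farthest libraries, 0.84 at 4 weeks and 0.713 at 12 weeks. Mrc1 and Stab1 had r = 0.774 (permutation p 0.00392, adjusted 0.0131) and rho = 0.707 (permutation p 0.013, adjusted 0.0216), with 0.645 without the 2 farthest. At the other end, Stab1 and Folr2 had r = 0.092 (permutation p 0.706) and rho = 0.185 (permutation p 0.482), and r was -0.28 at 4 weeks and 0.642 at 12 weeks. Sham replicate 3 at 4 weeks, the shallowest library, weighed on that pair, with a deviation of -0.72 for Stab1 and 0.20 for Folr2, and without it and sham replicate 5 r was 0.451. All pairs rest on the same 18 libraries. Such likeness was not particular to the receptors. Ranked by r among all other genes tested, Mrc1 stood at 7 for Cd163 and Cd163 at 33 for Lyve1. Mrc1 stood at 453 for Stab1, and Stab1 at 6057 for Folr2. With each library set relative to its general macrophage markers, r was 0.785 for Cd163 and Mrc1, 0.67 for Lyve1 and Cd163, 0.712 for Mrc1 and Stab1, and -0.422 for Stab1 and Folr2.

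**Figure D4:**
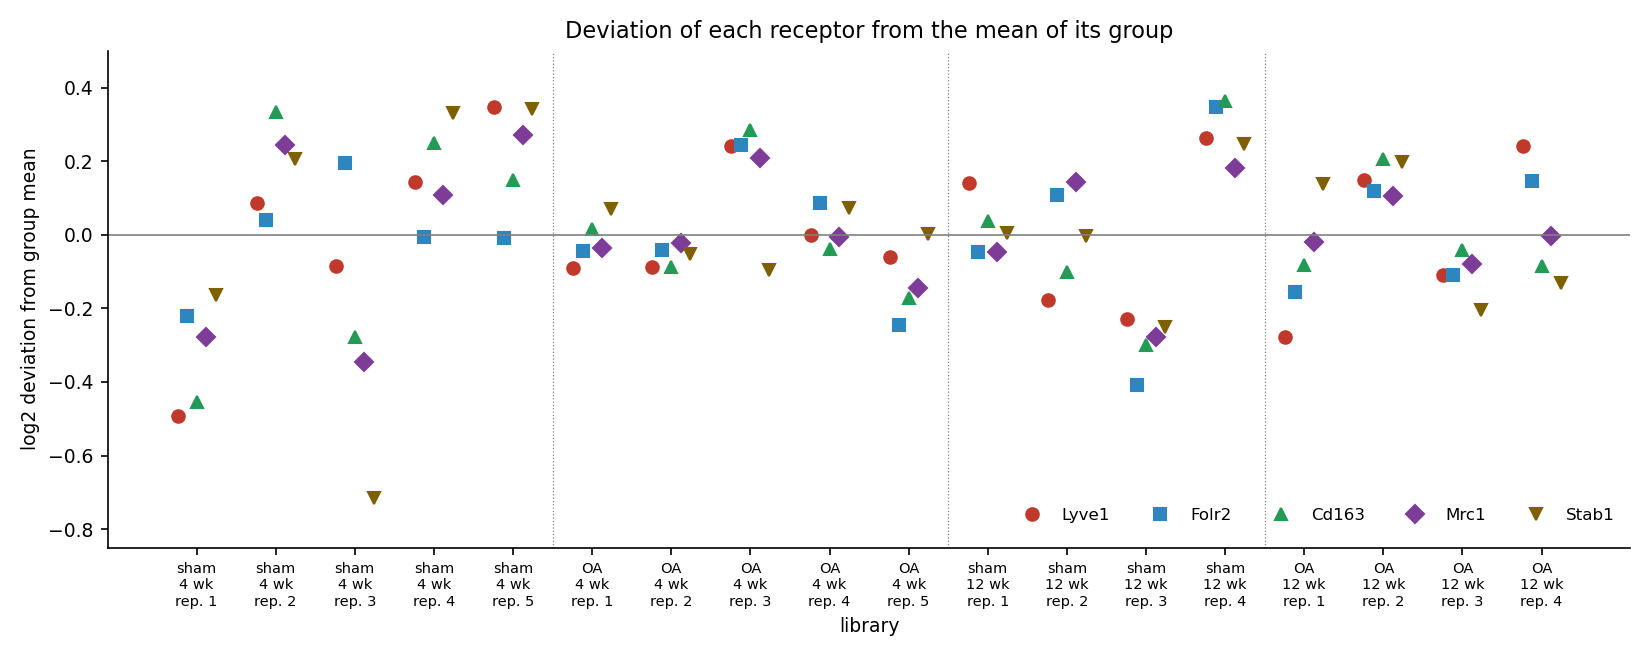
Log2 deviation of each receptor from the mean of its group (y axis) in each of 18 libraries (x axis), with dotted lines between groups. In sham replicate 4 at 12 weeks all 5 receptors lie above 0, in sham replicate 3 at 12 weeks all lie below, and in sham replicate 3 at 4 weeks Stab1 lies at -0.72 while Folr2 lies at 0.20.

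The genes most like each receptor in these deviations, as a description over the same 18 libraries, were mostly different from one receptor to the next. For Lyve1 they were C1ql3 (r = 0.917), Sfxn3 (0.908) and Prkcz (0.885). C1ql3, a secreted C1q-like protein, had log2 OA against sham differences of 0.66 at 4 weeks and 0.63 at 12 weeks. For Cd163 they were Arap2 (0.903), Slc9a9 (0.897) and Adam23 (0.885). For Mrc1 they were Eps8 (0.961), Etv1 (0.937) and Dpy19l3 (0.936), and for Stab1 Ankrd13d (0.945), Arhgap17 (0.942) and Dop1b (0.934). For Folr2 they were Alox5ap (0.948), the partner of 5-lipoxygenase, Ctsh (0.943), a lysosomal protease, and Fcna (0.94), a ficolin of macrophages and itself a gene of the sublining list below.

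Among the relatives of the receptors by protein family, limma called no gene between OA and sham at either week. Of 9 tested at 4 weeks 2 were higher and 3 lower at an unadjusted p under 0.05, and of 8 tested at 12 weeks 3 were higher and 1 lower. At that mark 4.1% of all genes were higher and 3.82% lower at 4 weeks, and 5.75% and 6.62% at 12 weeks. Relatives of the mannose receptor had differences of either sign. Mrc2, a collagen uptake receptor of fibroblasts and some macrophages, counted 1112 to 1486 normalised reads in OA and 557.8 to 900.0 in sham at 12 weeks, a log2 difference of 0.71 (adjusted p 0.265 in limma, 0.0065 in DESeq2), with no overlap, and had a log2 difference of 0.055 at 4 weeks (adjusted p 0.923 in limma). Ly75, an endocytic receptor of dendritic cells, had log2 differences of 0.28 at 4 weeks and 0.26 at 12 weeks (adjusted p 0.616 and 0.402 in limma). Pla2r1, the phospholipase A2 receptor, had log2 differences of -0.78 at 4 weeks (adjusted p 0.511 in limma) and -0.54 at 12 weeks (adjusted p 0.325), counting 36.7 to 46.5 normalised reads in OA and 49.2 to 141.6 in sham at 4 weeks. Havcr2, a relative of Timd4 better known as an inhibitory receptor of T cells and myeloid cells, had a log2 difference of 0.51 at 4 weeks (adjusted p 0.403 in limma). Groups that did not overlap were found in 1.18% of all genes with a higher level in OA and 0.693% with a lower level at 4 weeks, and in 2.85% and 3.44% at 12 weeks.

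Of 14 other scavenger and uptake receptors tested, 3 were higher and 0 lower in OA at 4 weeks at an unadjusted p under 0.05. At 12 weeks 5 were higher and 2 lower, and none was called in limma at either week. The shares of all genes were 4.1% higher and 3.82% lower at 4 weeks, and 5.75% and 6.62% at 12 weeks. Msr1, the class A scavenger receptor for modified lipoproteins, counted 5205 to 6906 normalised reads in OA and 2781 to 4909 in sham at 4 weeks, and 6045 to 8736 and 4134 to 6040 at 12 weeks. Its groups did not overlap at either week, with log2 differences of 0.65 (adjusted p 0.349 in limma, 0.0102 in DESeq2) and 0.50 (adjusted p 0.278 in limma). Genes higher in OA without overlap made up 1.18% of all genes at 4 weeks and 2.85% at 12 weeks, and the share at both weeks was not counted. Colec12, a scavenger receptor with a collagen-like stalk, had a log2 difference of 0.43 at 4 weeks (adjusted p 0.409 in limma), and Cxcl16, a chemokine that doubles as a receptor for oxidised lipoprotein, 0.36 at 12 weeks (adjusted p 0.299). Between weeks 5 of the 14 were higher at 12 weeks and 2 lower in sham at an unadjusted p under 0.05 in limma. In OA 3 were higher and 1 lower. All-gene shares were 10.2% higher and 8.97% lower in sham, and 7.76% and 6.84% in OA. Siglec1, a sialic acid receptor of resident macrophages, was the gene of this list that was called, with 1.02 on the log2 scale in sham (adjusted p 0.0418 in limma). Of the family relatives Mrc2 was called, with 0.69 in OA (adjusted p 0.0363 in limma).

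Of 14 other genes of resident sublining macrophages tested, 2 were higher and 1 lower in OA at 4 weeks at an unadjusted p under 0.05. At 12 weeks 2 were higher and 0 lower, and none was called in limma at either week. Among all genes 4.1% were higher and 3.82% lower at 4 weeks, and 5.75% and 6.62% at 12 weeks. The same 2 genes of the list were higher at both weeks. Gpr34, a receptor for lysophosphatidylserine, counted 2711 to 3572 normalised reads in OA and 1592 to 2427 in sham at 12 weeks, with log2 differences of 0.62 at 4 weeks (adjusted p 0.403 in limma) and 0.59 at 12 weeks (adjusted p 0.265 in limma, 0.0235 in DESeq2). Ninj1, a protein that ruptures the membrane of dying cells, had log2 differences of 0.33 and 0.32 (adjusted p 0.403 and 0.378 in limma). Between weeks, 8 of 14 genes were higher at 12 weeks in sham and 9 of 14 in OA at an unadjusted p under 0.05, where 10.2% and 7.76% of all genes were higher, and 0 were lower, where 8.97% and 6.84% of all genes were. C4b, a complement component, rose by 0.72 in sham and 0.84 in OA on the log2 scale (adjusted p 0.00728 and 0.00453 in limma), and Ccl24, an eosinophil chemokine, rose by 0.93 in OA (adjusted p 0.0366). The median log2 difference of the list was 0.27 in sham and 0.35 in OA, beside 0.16 and 0.17 for the general macrophage markers, 0.62 and 0.62 for the mast cell markers, and -0.0026 and -0.0064 over all genes.

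**Figure D5:**
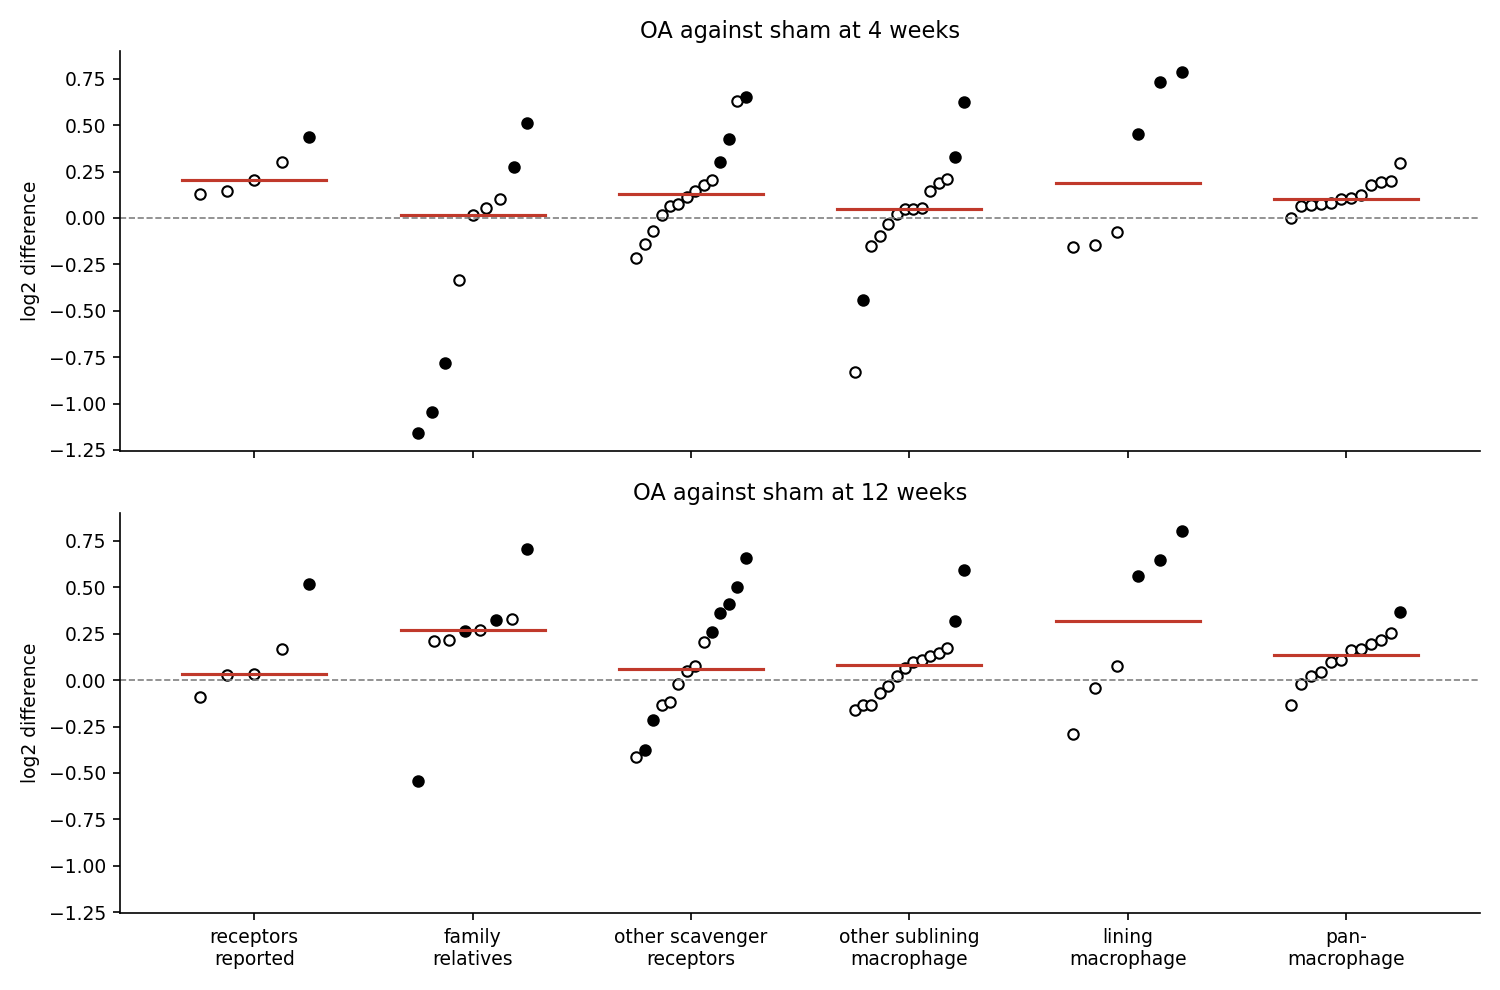
Log2 difference between OA and sham (y axes) of each tested gene in 6 lists at 4 and 12 weeks, filled where the unadjusted p in limma was under 0.05, with a red line at the median of the list. Lyve1 is the 1 filled point of the receptors in each panel, at 0.43 and 0.52, and 3 of 6 lining macrophage markers are filled in each.

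Of 6 markers of lining macrophages, 3 were higher in OA at each week at an unadjusted p under 0.05 and 0 were called. That mark was met by 4.1% of all genes with a higher level in OA at 4 weeks and 5.75% at 12 weeks. The median log2 difference of the 6 lining markers was 0.19 at 4 weeks and 0.32 at 12 weeks, beside 0.20 and 0.03 for the 5 receptors. The lists were not tested against each other. Cx3cr1, the fractalkine receptor, Trem2, a lipid-sensing receptor, and Vsig4, a complement receptor, had log2 differences between OA and sham of 0.73, 0.45 and 0.79 at 4 weeks and 0.80, 0.56 and 0.65 at 12 weeks, with adjusted p-values in limma of 0.346 to 0.403 at 4 weeks and 0.275 to 0.391 at 12 weeks. Tjp1, Aqp1 and Sparc, the other 3 markers of that list, had log2 differences of -0.16, -0.14 and -0.08 at 4 weeks. At 12 weeks theirs were -0.29, -0.04 and 0.07. These 3 did not reach an unadjusted p of 0.05 in limma at either week. Between weeks Vsig4 rose by 1.22 in sham and 1.11 in OA on the log2 scale (adjusted p 0.0123 and 0.0268 in limma).

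Of 17 genes tested among ligands, partners and cargo handling, 1 was higher and 1 lower in OA at 4 weeks at an unadjusted p under 0.05. At 12 weeks 2 were higher and 1 lower. Over all genes 4.1% were higher and 3.82% lower at 4 weeks, and 5.75% and 6.62% at 12 weeks. Hmox1, haem oxygenase, which breaks down the haem that Cd163 brings in, counted 2561 to 3149 normalised reads in OA and 3299 to 4019 in sham at 12 weeks. Its groups did not overlap, and its log2 difference was -0.34 (adjusted p 0.278 in limma, 0.0426 in DESeq2), too small for a call in either. Genes lower in OA without overlap made up 3.44% of all genes at 12 weeks. Hpx, the haem carrier haemopexin, was near the low end of detection at 10.2 ± 4.46 normalised reads in OA against 17.4 ± 4.71 in sham at 4 weeks (SD, n = 5). Pros1, a bridge between dying cells and the receptors Mertk and Tyro3, had a log2 difference of 0.33 at 4 weeks without overlap (adjusted p 0.403 in limma). Genes higher in OA without overlap made up 1.18% of all genes at 4 weeks. Adam17, the protease that sheds Cd163 from the cell surface, had a log2 difference of 0.19 at 12 weeks (adjusted p 0.338 in limma).

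Of 15 regulators of resident macrophage genes, 3 were higher and 0 lower in OA at 4 weeks at an unadjusted p under 0.05. At 12 weeks 0 were higher and 1 lower. Beside this, 4.1% of all genes were higher and 3.82% lower at 4 weeks, and 5.75% and 6.62% at 12 weeks. Maf, a transcription factor of resident macrophages, had a log2 difference of 0.35 at 4 weeks (adjusted p 0.544 in limma), with 4 of 5 OA libraries above every sham library, and Il4r, the interleukin-4 receptor, 0.19 (adjusted p 0.57). At 12 weeks Fkbp5, a glucocorticoid target, had -0.31 (adjusted p 0.292 in limma). Between weeks Il10, an anti-inflammatory cytokine, rose by 1.15 on the log2 scale in sham (adjusted p 0.0383 in limma), and its difference in OA was 0.68 (adjusted p 0.254).

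Of the marker lists of other cells, none held a gene called between OA and sham in limma, which called 0 genes at either week. Calls of DESeq2 were not counted by list. The authors named Myh7, of the skeletal muscle list, among the genes differentially expressed at 12 weeks. For the counts that follow, 4.1% of all genes were higher in OA and 3.82% lower at 4 weeks, and 5.75% and 6.62% at 12 weeks. Skeletal muscle had 0 genes at an unadjusted p under 0.05 at 4 weeks and 4 of 6 higher in OA at 12 weeks. Monocytes had 2 of 6 higher and 1 lower at 12 weeks, and 1 gene each was lower for dendritic cells and blood endothelium at 12 weeks, for mast cells at 4 weeks and for adipocytes at each week. Neutrophil, T and NK cell and B cell lists had 0 at either week, and the general macrophage list had 0 at 4 weeks and 1 of 12, Cd14, higher at 12 weeks.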

How the data were processed

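The authors sequenced RNA of CD11b/c-sorted synovial cells, used fastp 0.20.0 for read quality, STAR 2.7.6a for alignment to Rnor_6.0, Sambamba to drop duplicates and featureCounts 2.0.0 for counts of reads in genes, which were scaled by size factors from DESeq2 1.24.0 for each time point on its own. The libraries were made with a stranded kit, and whether the counts used strand is not given in the sources used here. The deposited values are these normalised reads, a signal that is never negative. Columns with the authors' own log2 fold changes, Wald statistic (a score) and p-values are deposited beside them and were not used. In 100% of values the reads could be recovered as whole multiples of 1 read (tolerance 0.01), so that 1 read set the precision, and 3 reads corresponded to 2.06 to 6.96 normalised reads.

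Groups and replicate numbers came from the sample labels, which give 4 libraries per surgery at 12 weeks. OA was compared with sham in limma 3.58.1 (R 4.3.3), on log2 (normalised reads + 1) with a trend of variance on mean, over genes with a mean of at least 10. Weeks were compared in 1 limma fit on log2 CPM (TMM scaling, prior count 2) of the recovered reads, because the tables had been normalised separately. Adjustment followed Benjamini and Hochberg over all genes tested, and a gene was called at an adjusted p-value under 0.05 and a log2 difference of at least 0.5. The count tests edgeR 4.0.16 and DESeq2 1.42.0 on the recovered reads were alternatives, DESeq2 without the filter on the mean. Exact permutation tests, and correlations with 100000 permutations within groups, were run in Python 3.11.15 with scipy 1.17.1, numpy 2.4.6 and pandas 2.3.3.

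The receptors, the gene lists and the tests were chosen with earlier results of these data known. The genes named are the receptors, the 3 genes most alike to each, the 2 with the smallest p in each list of related genes at each week, called genes of those lists, and markers of other cells; 1 gene that this rule names is not reported here. Il4r was matched to its list by its RefSeq synonym. Other list genes without a row were not analysed here, and levels were not compared between genes, since no lengths were used. Alternatives were another pseudocount or prior count, another filter, TMM or total-read scaling, the count tests, quality weights for samples, a replicate block, levels relative to the general macrophage list, and leaving out each library. The week contrasts relative to that list and the ratios between receptors were chosen after seeing the data. In data simulated with 200 genes changed by 2-fold, limma recovered 79.5% at 4 weeks with 3 false calls and 66% at 12 weeks with 7. For a change of the OA against sham difference between weeks it recovered 17% with 2 false calls. The comparisons of 12 against 4 weeks within a surgery were not simulated. Where no gene was changed, limma made 0 false calls. Every gene was simulated with the same spread between libraries, a setting that these libraries were not shown to meet. Libraries of a group differed beyond sampling noise in all 32 pairs (chi-square per degree of freedom 5.84 to 38.8), so each was counted as 1 sample.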

Additional observations from a re-analysis of the deposited data

Results flagged for a closer look

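Lyve1 in OA replicate 3 at 4 weeks, at 9848.0 normalised reads, stood apart from the other 4 OA libraries, which lay between 7699.1 and 8226.3. Its gap to the nearest of them was 0.755 of the range of the group, above Dixon's critical value of 0.71. It was the 1 value flagged in 20 groups of 5 receptors, and chance flags about 1 in 20. Cd163, Mrc1 and Folr2 were also highest of their group in this library, whose 9 neutrophil genes summed to 1182 CPM, and the part of that content in the Lyve1 value was not tested. Lyve1 was higher in OA than in sham with this library left out, within the range of 0.32 to 0.53 on the log2 scale given by leaving out each library in turn.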

How the results depend on the processing

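Lyve1 kept its direction between OA and sham under every alternative run, from 0.31 to 0.43 at 4 weeks and from 0.40 to 0.53 at 12 weeks on the log2 scale, and was called under none. Genes called between OA and sham numbered 27 at 4 weeks and 95 at 12 weeks with DESeq2, and 1 at 4 weeks with sample quality weights. Between weeks, 207 genes called in sham became 118 relative to the general macrophage list and 548 with DESeq2, and 138 in OA became 53 with every gene with a read, 599 with sample quality weights, 27 relative to the macrophage list and 270 with DESeq2. The log2 difference in Cd163 between weeks in OA was no longer called with every gene with a read (0.7326, adjusted p 0.117 in limma) or relative to the macrophage list (0.5664, adjusted p 0.0905), a scaling that set the median of all genes at -0.1834. Small differences turned over at 12 weeks with quality weights for Cd163 (-0.0241) and Mrc1 (-0.0031) and relative to the macrophage list (-0.0884 and -0.0936). The change of the OA difference between weeks turned over for Folr2 with every gene with a read (-0.012) and quality weights (-0.0387), as did Stab1 between weeks in OA relative to the macrophage list (-0.0232). That scaling lowered the median r between receptors to 0.428. The cause was not tested.

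Leaving out each library in turn gave 0 to 1 genes called between OA and sham at 4 weeks and 0 to 81 at 12 weeks, the 81 without sham replicate 3, and 88 to 259 between weeks in sham and 38 to 237 in OA. Log2 differences then ranged for OA against sham at 12 weeks from -0.0704 to 0.1562 in Cd163 and from -0.0683 to 0.0905 in Mrc1. For the change of that difference between weeks they ranged from -0.1809 to 0.0403 in Cd163 and from -0.0656 to 0.1869 in Folr2. Between weeks they ranged from 0.7033 to 0.9243 for Cd163 and from 0.3609 to 0.5491 for Mrc1 in sham (past the threshold without sham replicate 3 at 12 weeks, adjusted p 0.0448 in limma), and from 0.6744 to 0.8143 for Cd163 in OA.

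A replicate block called 1 gene at 4 weeks and 0 at 12 weeks, and changed no call of a receptor. Libraries with the same number shared only the number, since the correlations of their deviations ran from -0.1311 to 0.2983 over 9 pairs.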
